A study of Arabidopsis thaliana with 4 samples.

Results

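The chloroplast genome of Arabidopsis thaliana encodes core subunits of the photosynthetic machinery, and 33 of these genes are described here: 5 of photosystem I (psa), 15 of photosystem II (psb), 6 of the cytochrome b6f complex (pet), 6 of the chloroplast ATP synthase (atp) and rbcL for the large subunit of Rubisco. The rule takes every probe set that the platform annotation assigns to one plastid-encoded gene of these complexes and uses no signal value. All 33 had a probe set, 1 each, among 22746 non-control probe sets on the array and among 69 plastid-encoded genes with a probe set of their own. RNA came from rosette leaves of 3-week-old wild-type Col-0 plants grown on soil. Detached leaves had floated for 1 h on 0.1 mM FAD (flavin adenine dinucleotide, the flavin cofactor of many oxidoreductases) or, as mock, on water, starting 4 h into the light period. Each treatment had 2 biological replicates, giving 4 one-colour Affymetrix arrays. The comparison asks what external FAD changes in leaf transcript levels within that time. All leaves, mock included, were detached, and leaves before floating had no array.

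In the thylakoid membrane, photosystem II oxidises water and passes electrons through the cytochrome b6f complex to photosystem I, and the resulting proton gradient drives the ATP synthase, while Rubisco fixes carbon dioxide in the stroma. Plastid genes are transcribed by a bacterial-type polymerase together with phage-type polymerases encoded in the nucleus, many of them as operons whose long transcripts are then cut, spliced and trimmed. Unlike in the cytosol, a poly(A) tail on a plastid RNA is a mark for degradation, and most plastid transcripts carry none. The labelling used here was a 3' IVT kit, a type made for polyadenylated mRNA. What part of each plastid transcript pool it labelled was not tested, so the values are signals of labelled RNA.

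The 2% trimmed mean signal was 500.1 on each of the 4 arrays, which shows that the submitters' software had scaled the arrays to one another. FAD replicate 2 stood apart in its first set of 9 spike-in probe sets, where its signals were a median of 5.39 times below the mean of the rest, while the second set of 9 had a median log2 difference of 0.14. The actin ratio of 3' over 5' signal, which reads RNA integrity, was lower in FAD leaves by both probe set pairs, at 23.6 and 27.5 in FAD leaves, against 31 and 33 in mock leaves, for the first pair and 4.7 and 5.34, against 5.42 and 5.56, for the second. The GAPDH and ubiquitin ratios overlapped between treatments in both sets, as in the first ubiquitin pair with 2.91 and 2.25 in FAD leaves, against 2.32 and 2.30 in mock leaves. The part of the spike-ins and these ratios in the results below was not tested. As a check of the tissue, the leaf genes PSAE-1 and RCA gave signals of at least 29214 on every array, and the root marker EXPA7 at most 53.3, below the filter on dim signals.

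No plastid-encoded photosynthesis gene passed the test between FAD and mock leaves, in any of the 5 complexes. Of the members, 32 had a mean signal above the filter, a geometric mean of 63.6, and were tested. Limma, adjusted by Benjamini-Hochberg over 13648 probe sets, called 0 of them higher or lower at an adjusted p under 0.05, and 0 had an unadjusted p under 0.05. Over all tested probe sets limma called 0 higher and 5 lower, 0.0366%, and 6.87% had an unadjusted p under 0.05. The members' log2 fold changes, FAD over mock, lay between -0.38 and 0.31, with a median of 0.058 against 0.05 over all tested probe sets. Without FAD replicate 2 the members' median was -0.11. Their standard errors lay between 0.14 and 0.29. No 95% interval of a tested member reached a 2-fold change, since the lowest bound was -0.93 and the highest 0.87 on the log2 scale; these intervals are not adjusted for the number of genes. Nothing in the labels says that the biological replicates came from separate plants, and the p-values here cover only the spread among these 4 samples. In whole leaves, a lower signal from fewer green cells or plastids and one from less RNA in each cannot be told apart.

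**Figure D1:**
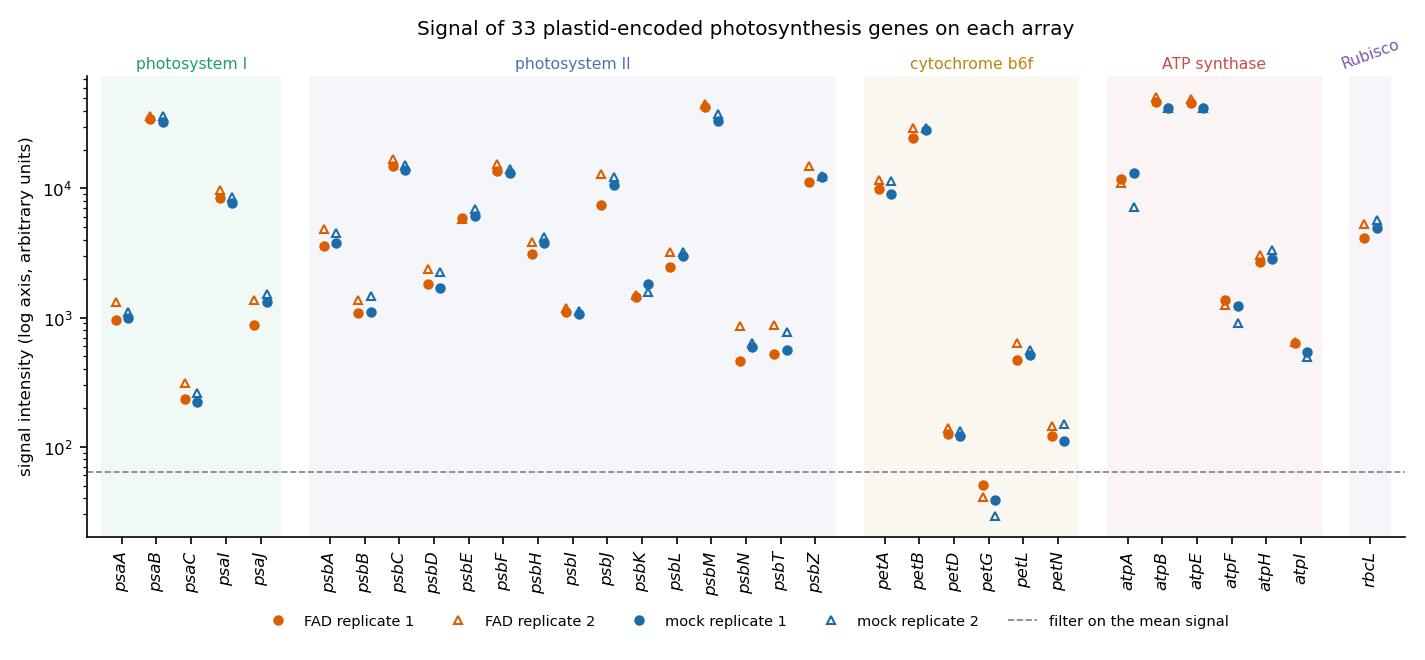
Signal intensity (log axis, arbitrary units) of each of the 33 genes on the 2 FAD arrays and the 2 mock arrays, grouped by complex, with the filter on the mean signal as a dashed line. The arrays of both treatments lie close together for most genes, petG alone is below the filter, and atpA is lowest on mock replicate 2.

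Probe sets differ in how strongly they bind, so signals are compared between arrays and not between genes. Member signals ran from 29.1 for petG to 50918 for atpB on single arrays. The highest signal of any probe set was 57988. Whether the brightest members, atpB, atpE, psbM and psaB, were near saturation cannot be read from the deposited values, in which a saturated probe set would show a compressed difference.

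Among photosystem I genes, those of the reaction centre had overlapping deposited signals with and without FAD. Together psaA and psaB encode the large chlorophyll-binding pair of the reaction centre. The psaB signal was 34340.2 and 36376 in FAD leaves, against 32676 and 36261 in mock leaves, a log2 fold change of 0.038 ± 0.14 (SE; adjusted p = 0.973). That of psaA was 961 and 1320.5 in FAD leaves, against 988 and 1104 in mock leaves, with FAD replicate 2 the highest of the 4 arrays and a log2 fold change of 0.11. In psaC, which encodes the iron-sulphur protein that hands electrons to ferredoxin, the signal was 234 and 309 on the FAD arrays and 224 and 261 on the mock arrays, with a log2 fold change of 0.16. The small membrane subunit gene psaI had 8462 and 9697 on the FAD arrays and 7767 and 8526 on the mock arrays, and here too the treatments overlapped. Its counterpart psaJ had the lowest log2 fold change of all tested members, -0.38 ± 0.24 (SE; adjusted p = 0.81), with 875 and 1368 on the FAD arrays and 1318 and 1529 on the mock arrays. Only FAD replicate 1 lay below both mock arrays, and without that array the log2 fold change of psaJ was -0.053. Of the 5 genes, 4 had a positive value, or 3 with quantile normalization or median centring, and 0 passed in limma. Quantile normalization put both FAD arrays above both mock arrays in 1 of the 5, against 19.5% of all tested probe sets.

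With the deposited scaling, the 15 photosystem II genes showed no common direction. The reaction centre gene psbA, whose protein is continually replaced in the light, had 3558 and 4865 on the FAD arrays and 3746 and 4485 on the mock arrays, a log2 fold change of 0.021 ± 0.20 (SE; adjusted p = 0.99). Its 95% interval ran from -0.45 to 0.49. For psbD, which encodes the other reaction centre protein, the signal was 1821 and 2363 on the FAD arrays and 1699.6 and 2239.8 on the mock arrays. The genes of the inner chlorophyll antennae, psbB and psbC, had log2 fold changes of -0.061 and 0.13, with psbC at 14929 and 16952 on the FAD arrays and 13862 and 15289.6 on the mock arrays. In all 4 of these genes the arrays of the treatments overlapped with the deposited scaling. Over the 15 genes, quantile normalization put both FAD arrays above both mock arrays in 3, against 19.5% of all tested probe sets. It put both FAD arrays below both mock arrays in 3, against 17.4%. With the deposited scaling these numbers were 1, against 22.0%, and 2, against 15.0%.

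The small subunits of photosystem II held both the highest and the lowest values of the complex. Signal of psbM, a small subunit at the contact between the monomers, was 42553 and 44710.0 in FAD leaves, against 33319.5 and 37484 in mock leaves. Both FAD arrays were above both mock arrays, and its log2 fold change of 0.30 had the smallest unadjusted p of all members, with a 95% interval from -0.035 to 0.64 and a limma adjusted p = 0.758. The psbM value was 0.15 with quantile normalization and 0.21 with median centring. For psbE, which encodes the alpha subunit of the cytochrome of photosystem II, the signal was 5877 and 5816 in FAD leaves, against 6159 and 6912 in mock leaves, so that both FAD arrays were below both mock arrays, with a log2 fold change of -0.16. Its partner psbF, the beta subunit, had 13527 and 15353 on the FAD arrays and 13231 and 14224 on the mock arrays, a log2 fold change of 0.071. The small subunit gene psbK was also lower on both FAD arrays, with 1444 and 1492 on the FAD arrays and 1814 and 1582 on the mock arrays and a log2 fold change of -0.21 ± 0.17 (SE; adjusted p = 0.841). The remaining 7, psbH, psbI, psbJ, psbL, psbN, psbT and psbZ, had log2 fold changes between -0.22 for psbJ and 0.078 for psbI. In psbJ, FAD replicate 1 was the low array, with 7415 and 12922 on the FAD arrays and 10552 and 12274 on the mock arrays. In psbN, which encodes an assembly factor of photosystem II, the FAD arrays enclosed the mock arrays, with 463 and 867 on the FAD arrays and 587 and 639.7 on the mock arrays. Over the 15 genes 9 values were positive and 6 negative with the deposited scaling, where 57.5% of all tested probe sets were positive. With median centring 2 of the 15 were positive, against 43.8%, so the direction depends on the scaling. Of the 15 genes 0 passed in limma. Their median log2 fold change was 0.031 with the deposited scaling. Without FAD replicate 2 this median was -0.20, and without FAD replicate 1 it was 0.18.

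In the cytochrome b6f complex the arrays of the treatments overlapped, with the deposited scaling, for the genes of the large subunits. The cytochrome f gene petA had 9911 and 11604 on the FAD arrays and 9099.6 and 11480.0 on the mock arrays, a log2 fold change of 0.069 ± 0.18 (SE; adjusted p = 0.963). The gene of cytochrome b6, petB, had 24475 and 29386 on the FAD arrays and 28151 and 29185 on the mock arrays, where FAD replicate 1 was the lowest array. The subunit IV gene petD had 126 and 139 on the FAD arrays and 120.0 and 132 on the mock arrays, with a log2 fold change of 0.078. Among the small subunit genes petL had 472 and 634 on the FAD arrays and 508 and 561 on the mock arrays, and petN had 121 and 145 on the FAD arrays and 111 and 150.4 on the mock arrays. Both had a log2 fold change of 0.035, and the arrays of the treatments overlapped in both. The gene petG was the one member below the filter, with 50.6 and 40.8 on the FAD arrays and 38.6 and 29.1 on the mock arrays. Its log2 difference of 0.44 was not tested. The 5 tested genes had a median of 0.035, and 4 of the 5 were positive with the deposited scaling, 2 with quantile normalization and 0 with median centring. Quantile normalization put both FAD arrays below both mock arrays in 1 of the 5, against 17.4% of all tested probe sets.

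**Figure D2:**
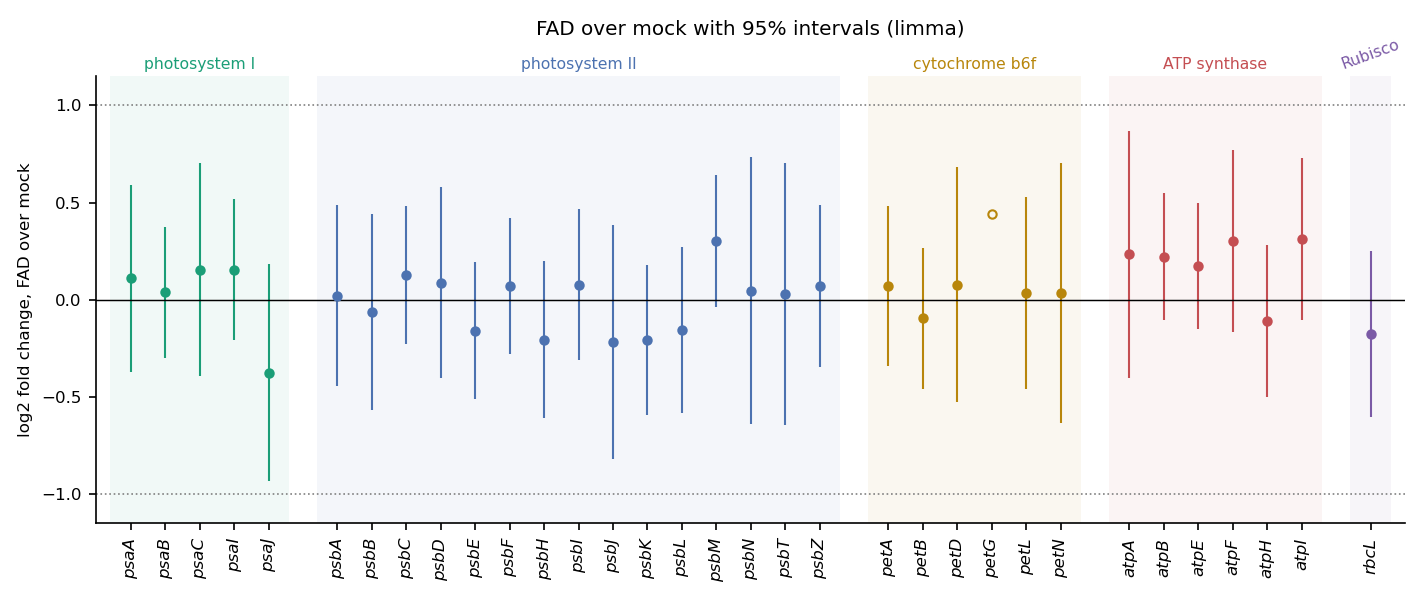
Log2 fold change, FAD over mock, of each of the 33 genes with the 95% interval from limma, grouped by complex; dotted lines mark 2-fold changes and the open circle is petG, which was not tested. All intervals of the 32 tested genes include 0 and stay inside the 2-fold lines.

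Of the 6 ATP synthase genes, 5 had a positive log2 fold change, with each of the 3 scalings tried, and none passed in limma. The catalytic beta subunit gene atpB had 47003 and 50918 in FAD leaves, against 41873 and 42106 in mock leaves, a log2 fold change of 0.22 ± 0.14 (SE; adjusted p = 0.81). The epsilon subunit gene atpE, which lies next to atpB and is transcribed with it, had 45975 and 49346 in FAD leaves, against 42194 and 42293 in mock leaves, a log2 fold change of 0.17 ± 0.14 (SE; adjusted p = 0.841). In both genes the mock arrays were almost equal and both FAD arrays were higher with the deposited scaling. With quantile normalization the log2 fold changes were 0.096 for atpB and 0.031 for atpE, and with median centring 0.13 and 0.084. FAD and mock arrays were then without overlap in 1 of these genes under quantile normalization and in 0 under median centring. For the membrane sector, atpI, which encodes the subunit that forms the proton channel with the ring, had 639 and 642 on the FAD arrays and 540.4 and 493 on the mock arrays, a log2 fold change of 0.31 ± 0.18 (SE; adjusted p = 0.782). The stalk subunit gene atpF had 1364 and 1242 on the FAD arrays and 1225 and 909 on the mock arrays, a log2 fold change of 0.30. The signal of atpH, which encodes the subunit of the rotating ring, was 2696 and 3042 in FAD leaves, against 2849 and 3349.8 in mock leaves, and its log2 fold change of -0.11 was the negative one of the 6. The alpha subunit gene atpA had 11921 and 10974 on the FAD arrays and 13212 and 7148 on the mock arrays, so the mock arrays enclosed the FAD arrays. Its log2 fold change of 0.24 was -0.21 without mock replicate 2 and 0.68 without mock replicate 1.

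The median log2 fold change of the ATP synthase genes was 0.23. It was 0.13 without mock replicate 2, 0.15 with quantile normalization and 0.14 with median centring, so it stayed positive at each of these settings. In 4 of the 6 genes both FAD arrays were above both mock arrays, against 22.0% of all tested probe sets. The number was 3 with quantile normalization, against 19.5%, and 2 with median centring, against 13.6%. With the deposited scaling, both FAD arrays were above both mock arrays for 5 of 32 tested members (15.6%). They were below both mock arrays for 2 of 32 (6.25%). Over all tested probe sets these shares were 22.0% and 15.0%. The shares over all members were thus no higher than the background with this scaling. Quantile normalization gave 7 of 32 (21.9%) above, against 19.5% of all tested probe sets, and 4 of 32 (12.5%) below, against 17.4%. Median centring gave 3 of 32 (9.4%) above, against 13.6%, and 2 of 32 (6.25%) below, against 22.5%. Of the complex's genes 4 come from a common operon, and atpB and atpE from another, so these 6 values are not independent of each other.

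For the large subunit of Rubisco, the enzyme that fixes carbon dioxide, the rbcL signal was 4101 and 5329 in FAD leaves, against 4936 and 5658 in mock leaves. FAD replicate 1 was the lowest array, FAD replicate 2 lay between the mock arrays, and the log2 fold change was -0.18 ± 0.18 (SE; adjusted p = 0.877). The rbcL difference was -0.37 without FAD replicate 2 and 0.012 without FAD replicate 1, so its size rests on single arrays.

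With the deposited scaling, genes that are transcribed together did not share a sign in every case. Several of these values were small beside their standard errors, as with psbB at -0.061 ± 0.22, psbT at 0.031 ± 0.29 and petD at 0.078 ± 0.26 (SE). The signs alone therefore do not show that genes of an operon diverged. In the operon of psbB, psbT, psbH, petB and petD, which joins photosystem II and cytochrome b6f genes, 2 of the 5 values were positive, or 0 of 5 with median centring, and the median was -0.061. The psbB signal was 1082 and 1375 in FAD leaves, against 1095 and 1479 in mock leaves. That of psbT, which encodes a small subunit near the reaction centre, was 519.6 and 873 in FAD leaves, against 557 and 779 in mock leaves. For psbH, whose protein is a phosphorylated small subunit, it was 3100.1 and 3823 in FAD leaves, against 3761 and 4193 in mock leaves, a log2 fold change of -0.21. With the deposited scaling, all 5 of these genes were higher on replicate 2 than on replicate 1 in both treatments. In none of them did FAD and mock arrays then separate. Quantile normalization gave 4 of 5 higher on replicate 2 in both treatments, and 2 of 5 with both FAD arrays below both mock arrays.

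In the psbE operon, which also holds psbF, psbL and psbJ, only psbF was positive, or none with median centring, and the median was -0.16. The small subunit gene psbL had 2448 and 3194 on the FAD arrays and 3016 and 3217 on the mock arrays, with FAD replicate 1 the lowest array. The psbD operon with psbC and psbZ had 3 of 3 positive, or 1 of 3 with median centring, and a median of 0.089. Its psbZ, which encodes a subunit at the rim of the photosystem II core, had 11174 and 14953 on the FAD arrays and 12158 and 12489 on the mock arrays, and there the FAD arrays enclosed the mock arrays. From the operon of atpI, atpH, atpF and atpA 3 of 4 were positive, also with median centring, with a median of 0.27. In the pair of psbK and psbI, psbK was lower on both FAD arrays, while psbI had 1107 and 1188 on the FAD arrays and 1056 and 1119 on the mock arrays, with overlap. None of the operon genes named here passed in limma.

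As a sum, the member probe sets made up slightly more of the array signal in FAD than in mock leaves with the deposited scaling. Their summed signal was 1.75% and 1.89% of all non-control signal on the FAD arrays, against 1.70% and 1.74% on the mock arrays. The treatments did not overlap, though FAD replicate 1 at 1.747% and mock replicate 2 at 1.742% lay close together. The mean was 1.82% ± 0.1 in FAD leaves and 1.72% ± 0.03 in mock leaves (SD, n = 2 each), a difference of 0.097 percentage points. This difference was 0.018 with quantile normalization and 0.026 without FAD replicate 2. With quantile normalization the treatments overlapped, at 1.748% and 1.806% on the FAD arrays and 1.774% and 1.744% on the mock arrays. With 2 arrays a side, the smallest two-sided p of an exact permutation test is 0.333, too large to pass, and the values stand without a test. By complex, the ATP synthase probe sets held 0.628% and 0.639% on the FAD arrays and 0.588% and 0.542% on the mock arrays, without overlap. The photosystem I, photosystem II, cytochrome b6f and Rubisco shares overlapped between treatments. These shares by complex were computed with the deposited scaling only. Bright probe sets weigh most in such a sum, atpB and atpE above all in that of the ATP synthase.

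**Figure D3:**
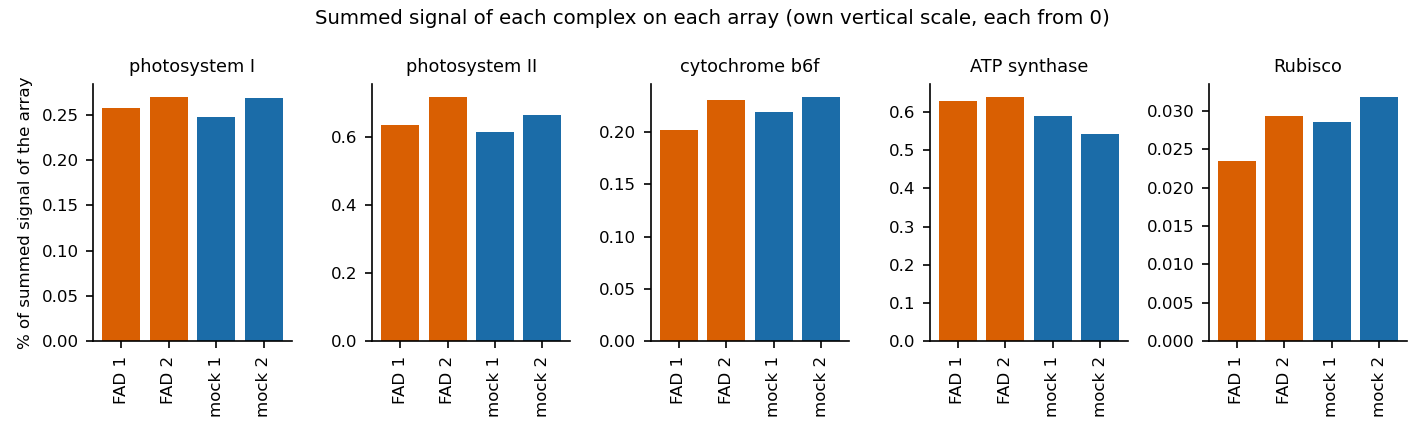
Summed signal of the probe sets of each complex as a percent of the summed non-control signal of the array, for FAD replicates 1 and 2 and mock replicates 1 and 2, with an own vertical scale from 0 in each panel. With the deposited scaling, the only one used here, the FAD bars are above the mock bars for the ATP synthase and overlap with them for the other complexes.

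The replicate arrays of a treatment differed in the signals of the members. The median absolute log2 difference between the replicates was 0.25 in FAD leaves and 0.16 in mock leaves. Over all tested probe sets it was 0.23 and 0.24. The members' median absolute log2 fold change of FAD over mock, in which 2 arrays a side are averaged, was 0.12, against 0.18. The members' replicate differences ran mainly one way. Of the 32 tested members, 29 were higher on replicate 2 than on replicate 1 in FAD leaves and 28 in mock leaves, against 46.9% and 44.1% of all tested probe sets. In both treatments at once this held for 27 of 32, against 24.5% of all tested probe sets. With quantile normalization it held for 19 of 32, against 28.6%, and with median centring for 28 of 32, against 33.8%. The median difference, replicate 2 minus replicate 1, was 0.25 in FAD leaves and 0.15 in mock leaves, while over all tested probe sets it was -0.027 and -0.048. The labels do not say what arrays of the same number share, and the number has no test here.

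With the deposited scaling, the tested genes were mainly higher on replicate 2 in 4 of the 5 complexes. All 5 photosystem I genes, all 5 tested cytochrome b6f genes and rbcL were higher on replicate 2 in both treatments. So were 13 of the 15 photosystem II genes. With quantile normalization this held for 4 of 5 photosystem I, 4 of 5 cytochrome b6f and 9 of 15 photosystem II genes. In FAD leaves the largest differences were 0.91 for psbN, 0.80 for psbJ, 0.75 for psbT and 0.64 for psaJ on the log2 scale. In mock leaves psbT had 0.48, petN 0.44, psbB 0.43 and psbD 0.40. Of the ATP synthase genes, 3 of 6 were higher on replicate 2 in both treatments, or 1 of 6 with quantile normalization. Here atpA and atpF went the other way in both, with -0.12 and -0.14 in FAD leaves and -0.89 and -0.43 in mock leaves. The dim gene petG was also lower on replicate 2, with -0.31 in FAD leaves and -0.41 in mock leaves.

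**Figure D4:**
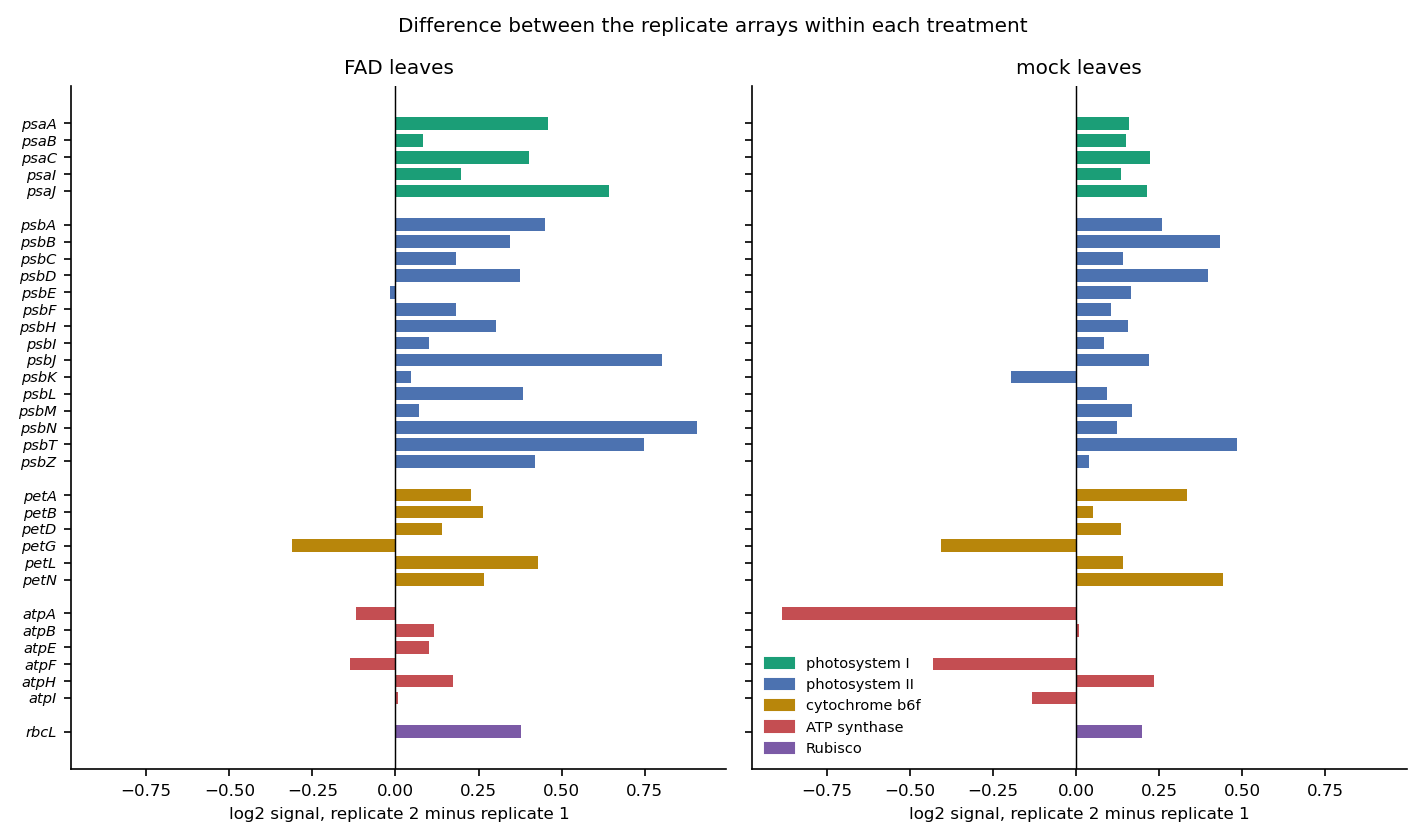
Log2 signal on replicate 2 minus that on replicate 1 for each of the 33 genes, in FAD leaves (left) and mock leaves (right), coloured by complex. Nearly all photosystem, cytochrome b6f and Rubisco bars point to replicate 2 in both treatments, while atpA, atpF and petG point to replicate 1.

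The rest of the plastid-encoded genes were set beside the members. Of 48 names written in 3 lists of plastid genes for the NDH complex, for gene expression and for other functions, 36 had a probe set and 35 were tested, and 0 passed in limma. Their median log2 fold change was -0.032, with 10 positive and 25 negative values, whereas 22 of the 32 members (68.8%) and 57.5% of all tested probe sets were positive. With median centring 7 of 35, 10 of the 32 members (31.2%) and 43.8% of all tested probe sets were positive. The difference between these groups was not tested. The lowest value was that of rpl33, a ribosomal protein gene, at -0.998 (SE 0.31, adjusted p = 0.539), with 3867 and 2051 on the FAD arrays and 4776 and 6624 on the mock arrays. The ribosomal protein gene rps16 had 267 and 199.5 on the FAD arrays and 347 and 389 on the mock arrays, a log2 fold change of -0.67 ± 0.23 (SE; adjusted p = 0.583). Of the 10 tested genes of the NDH complex, which cycles electrons around photosystem I, 4 had positive and 6 negative values. Its dim gene ndhF had the widest, 0.96 ± 0.62 (SE; adjusted p = 0.811), with 61.1 and 132 on the FAD arrays and 26 and 82.3 on the mock arrays, where the arrays of the treatments overlapped. Next in order of the moderated t, ndhK had 0.15 and ndhH 0.35. The other plastid-encoded genes shared the difference between replicates, with 26 of 35 higher on replicate 2 in both treatments, or 24 with quantile normalization.

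Nuclear genes of the same complexes were covered only in part. Of 40 listed, 8 had a named probe set, and all 8 were tested with 0 passing in limma. Their median log2 fold change was -0.015, with 3 positive and 5 negative values. The photosystem I gene PSAE-1 had 31042 and 32722 on the FAD arrays and 30389 and 29214 on the mock arrays, a log2 fold change of 0.097. The gamma subunit gene of the ATP synthase, ATPC1, had -0.037, with 18773 and 17710.3 on the FAD arrays and 17807 and 19647 on the mock arrays, and its dim homologue ATPC2 had -0.66 ± 0.34 (SE; adjusted p = 0.766). The Rubisco activase gene RCA had 0.16. Of the 11 listed nuclear genes for plastid RNA maturation and translation, 4 were tested, 0 passed in limma and all 4 were negative, with CRP1, whose maize counterpart acts on petA and psaC transcripts, at -0.44 ± 0.19 (SE; adjusted p = 0.725) and ATAB2, a factor for translation of photosystem subunits, at -0.30. Of 21 listed genes for plastid transcription, among them the sigma factors, none had a named probe set in the annotation used here.

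**Figure D5:**
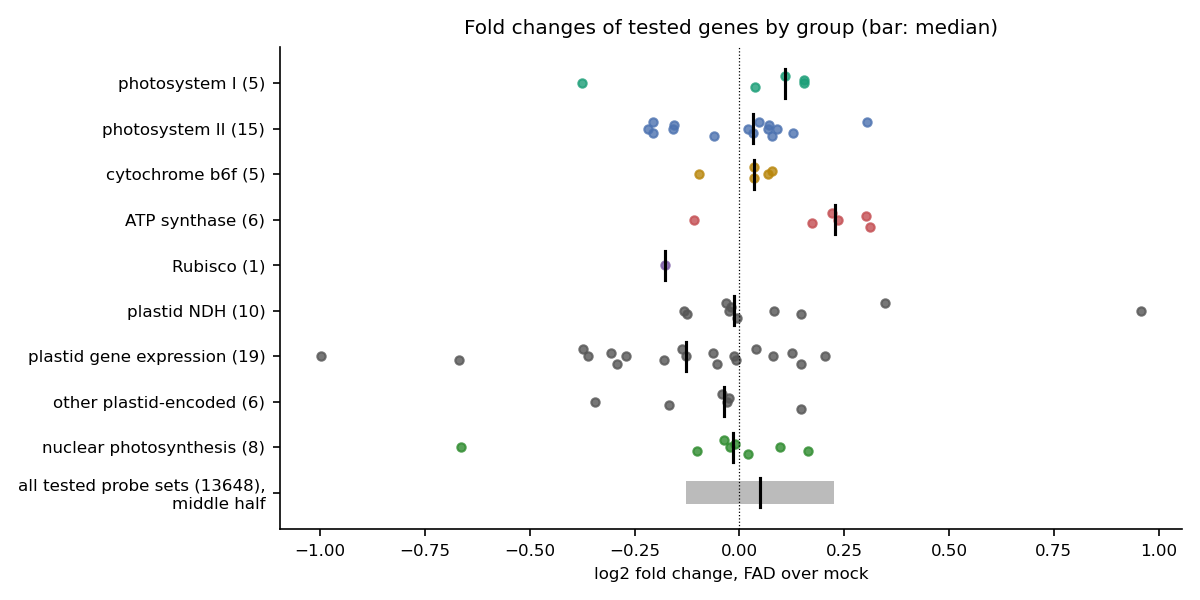
Log2 fold change, FAD over mock, of the tested genes of each photosynthetic complex, of 3 groups of other plastid-encoded genes and of the nuclear photosynthesis genes (number tested in brackets), with the median as a bar; the grey box spans the interquartile range of all 13648 tested probe sets. The members lie between -0.38 and 0.31, and the widest values, -0.998 for rpl33 and 0.96 for ndhF, belong to other plastid genes.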

How the data were processed

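RNA of 4 samples, 2 of FAD-treated and 2 of mock-treated leaves, was measured on 1 array each. Per the submitters' processing notes, signals were made with GCOS; its version, its summary method and a genome build are not stated there. The deposited values are linear signal intensities, 1 per probe set and array, whose trimmed means differed by 0.000764%, so this scaling was kept; it cannot show a change in total mRNA. Intensities were log2 transformed with no constant. The 64 control probe sets were set aside, and probe sets with a mean log2 signal at or above the 40th percentile were tested. Genes were named from the platform annotation and the TAIR10.1 gene table by gene ID; no coordinates or sequences were used. The comparison of FAD with mock used R 4.3.3 and limma 3.58.1 (lmFit, eBayes with trend, treatment as the only term, 2 residual and 5.43 prior degrees of freedom), adjusted by Benjamini-Hochberg over all tested probe sets. Complexes and lists are described by counts and medians. Tested on simulated data (FAD against mock, 20 draws, 200 of 13648 probe sets changed), limma recovered 19.1% of the 2-fold, 84.4% of the 4-fold and 94.5% of the 8-fold changes, so a 2-fold change in a single gene would often not be called. Of the calls in the simulated data, 5.57% were unchanged probe sets. The simulated arrays varied independently, without the difference between replicates that the members shared in both treatments. The number of arrays limits the precision. Alternatives changed the scaling (quantile normalization, median centring, adding 32 before the log), the filter (none, or the 60th percentile), the variance model (no trend, robust, array weights), added a replicate block, or left out each array in turn. Every member is named; of the comparison lists, up to 3 genes each by the absolute moderated t. The rule for the members uses gene names alone, but the group and the lists were chosen with earlier results of these data known.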

Additional observations from a re-analysis of the deposited data

How the results depend on the processing

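The counts of members called, 0 higher and 0 lower, did not change under any of the 13 alternatives run. The lowest limma adjusted p of a member over these was 0.225, for psbM with the replicate block, and 0.703 in the settings without a block and with all arrays. With the replicate block, which adds the replicate number as a term, 36 probe sets were called higher and 153 lower over the whole table, none of them a member, and 2 members had an unadjusted p under 0.05. What the number stands for is not stated; across probe sets, the deviations of equal-numbered arrays from their group means had a correlation of 0.219. The count of all probe sets called lower, 5, became 18 under median centring, 2 both without a filter and with the stricter one, 0 without the trend, and 1 to 4 with 1 array left out, where 0 to 1 were called higher; in these fits the lone array is assumed to vary like the others. All members whose direction changed had not passed the test. Median centring turned psaB at -0.052, psbA at -0.068, psbD at -0.0011, psbF at -0.019, psbI at -0.012, psbN at -0.042, psbT at -0.058, psbZ at -0.021, petA at -0.020, petD at -0.012, petL at -0.055 and petN at -0.054, so that positive members numbered 10 in place of 22; quantile normalization turned psaB at -0.083, petD at -0.011 and petN at -0.057. The causes were not tested. With 1 array left out, log2 fold changes of members that changed sign ranged from -0.12 to 0.34 for psaA, -0.037 to 0.11 for psaB, -0.045 to 0.36 for psaC, -0.20 to 0.25 for psbA, -0.28 to 0.16 for psbB, -0.11 to 0.29 for psbD, -0.020 to 0.16 for psbF, -0.62 to 0.18 for psbJ, -0.35 to 0.036 for psbL, -0.41 to 0.50 for psbN, -0.34 to 0.41 for psbT, -0.14 to 0.28 for psbZ, -0.098 to 0.24 for petA, -0.23 to 0.036 for petB, -0.18 to 0.25 for petL, -0.19 to 0.26 for petN, -0.21 to 0.68 for atpA, -0.23 to 0.0075 for atpH and -0.37 to 0.012 for rbcL. The median ran from -0.11 to 0.18 over all members, from -0.20 to 0.18 for photosystem II and from 0.13 to 0.30 for the ATP synthase, which had 0.15 with quantile normalization and 0.14 with median centring. ATP synthase genes without overlap, 4 of 6 higher against 22.0% of all tested probe sets, were 2 of 6 with median centring, against 13.6%. The difference in summed signal was 0.018 percentage points with quantile normalization. Counts of directions, of replicate differences and of ATP synthase genes without overlap were given other scalings after seeing the data. Other probe sets of a gene could not be tried, since each member has 1. The filter at the 60th percentile removes petD, petN and petG.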
